A study of Rattus norvegicus with 7 samples.

Results

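This account covers 10 enzymes of glycolysis and lactate metabolism in isolated rat alveolar type 2 cells: Hk1, Hk2, Aldoa, Gapdh, Tpi1, Eno1, Pgam1, Pkm, Ldha and Ldhb. Members were taken by gene symbol: every probe set on the array to which the platform annotation gives 1 of these symbols. That gave 22 probe sets for 8 of the 10 genes, out of 4737 genes with a probe set of their own. Of the 22 probe sets, 13 were ordinary probe sets for 7 genes and 9 were array control probe sets, 6 for Gapdh and 3 for Hk1. Tpi1, Ldha and the ordinary Gapdh signal were each read by 1 probe set that the annotation also gives to copies of the gene, so those 3 probe sets are described by all their symbols. The ethanol group was 3 rats, male and of the Sprague Dawley strain, whose liquid Lieber-DeCarlie diet drew 36% of its calories from ethanol over 6 weeks. The control group was 4 rats of the same sex and strain on an isocaloric diet free of ethanol over the same 6 weeks. Type 2 cells, the surfactant-secreting epithelium of the alveolus, were isolated by immuno-absorption, and their RNA was read on Affymetrix expression arrays, as many in each group as the animals the design counts. The array numbers in the titles run from 1 to 4 for the controls and from 6 to 8 for ethanol, so diet and array order cannot be told apart.

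Glycolysis splits glucose into pyruvate in the cytosol and yields ATP without oxygen. Hexokinases trap glucose as its phosphate, aldolase and triose phosphate isomerase divide the sugar and interconvert the fragments, Gapdh makes NADH, and phosphoglycerate mutase, enolase and pyruvate kinase carry the carbon to pyruvate. Lactate dehydrogenase then exchanges pyruvate for lactate while it recycles NADH, with an A subunit encoded by Ldha and a B subunit encoded by Ldhb. Ethanol oxidation also makes NADH, mainly in the liver. Type 2 cells use glucose and lactate as fuel and as a source of carbon and glycerol for surfactant lipid. Many glycolytic genes are known targets of hypoxia-inducible factor, whose binding motif has the core letters ACGTG.

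The promoters of 4 of these genes are shown with the matches to this motif. Any link between the motif and the enzyme values on the arrays was not tested. Each window runs from 250 bases before to 50 bases after a RefSeq transcription start in the GRCr8 assembly, and capitals mark ACGTG on either strand (CACGT where it lies on the other strand). Ldha lies at chr1:106507842-106508141 (plus strand), Pgam1 at chr1:250672902-250673201 (plus strand), Gapdh at chr4:159652418-159652717 (minus strand) and Pkm at chr8:68953385-68953684 (plus strand), each given 5′ to 3′ along the gene.
Ldha: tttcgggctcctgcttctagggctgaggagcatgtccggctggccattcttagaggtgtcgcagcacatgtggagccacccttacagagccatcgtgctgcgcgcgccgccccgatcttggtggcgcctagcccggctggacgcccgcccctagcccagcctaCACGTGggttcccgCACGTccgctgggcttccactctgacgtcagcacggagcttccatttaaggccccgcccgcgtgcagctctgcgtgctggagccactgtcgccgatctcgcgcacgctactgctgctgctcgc
Pgam1: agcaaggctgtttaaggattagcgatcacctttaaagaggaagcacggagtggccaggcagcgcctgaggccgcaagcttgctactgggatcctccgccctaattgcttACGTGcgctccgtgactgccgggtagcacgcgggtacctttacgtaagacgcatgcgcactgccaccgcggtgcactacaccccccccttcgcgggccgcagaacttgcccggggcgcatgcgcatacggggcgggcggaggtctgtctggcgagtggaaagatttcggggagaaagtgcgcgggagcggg
Gapdh: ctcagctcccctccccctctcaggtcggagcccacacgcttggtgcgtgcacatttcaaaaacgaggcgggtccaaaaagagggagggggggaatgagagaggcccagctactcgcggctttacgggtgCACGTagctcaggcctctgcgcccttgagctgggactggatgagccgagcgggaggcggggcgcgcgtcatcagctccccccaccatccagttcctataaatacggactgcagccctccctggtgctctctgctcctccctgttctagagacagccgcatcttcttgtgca
Pkm: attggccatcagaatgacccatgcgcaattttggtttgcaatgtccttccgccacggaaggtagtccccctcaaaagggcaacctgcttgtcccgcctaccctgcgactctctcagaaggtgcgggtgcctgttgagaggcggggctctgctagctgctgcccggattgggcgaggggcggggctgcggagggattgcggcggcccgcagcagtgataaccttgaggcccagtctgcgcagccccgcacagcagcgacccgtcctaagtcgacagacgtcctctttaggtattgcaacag
The 10 genes had 14 such windows, of which 6 held ACGTG, 1 each for Ldha, Pgam1, Gapdh, Aldoa, Eno1 and Hk1. Over all 33469 windows of the same length in the RefSeq table the share was 19.3%. Ldha had 3 matches, counted on both strands, and a pair of them overlap as the palindrome CACGTG, which 6.42% of all windows held. The related letters GCGTG, also searched on both strands, were in 6 of the 14 windows and in 29.7% of all windows. The windows of Pkm, Hk2 and Tpi1 held none of these letters. These are matches of letters only, since binding was not measured.

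The deposited table gave 1 value per probe set and array, read as log2 expression from its range of 1.65 to 12.84. Arrays correlated with each other at 0.929 to 0.983 over the 8740 ordinary probe sets. The SD of values on an array ran from 1.34 to 1.46 for ethanol and from 1.29 to 1.44 for the controls. The isolates carried the type 2 cell marker Sftpc at 12.41 to 12.78 on the ethanol arrays and 12.76 to 12.84 on the control arrays. The surfactant gene Sftpb was at 11.49 ± 0.236 with ethanol (SD, n = 3) and 11.37 ± 0.063 in the controls (SD, n = 4). In bulk RNA a difference in cell makeup cannot be told apart from a difference in RNA per cell.

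None of the glycolysis and lactate enzymes passed the test for a difference between the diets. Of the 13 ordinary probe sets of their own, 5 were higher and 8 lower with ethanol, and 0 passed in limma at an adjusted p under 0.05, where 13 of all 8740 probe sets (0.149%) did. At an unadjusted p under 0.05 there were also 0, against 4.58% of all probe sets. In 0 of the 13 did the groups fail to overlap, against 5.24% of all probe sets. The log2 differences, ethanol minus control, ran from -0.21 for Ldhb to 0.24 for Hk1, with a median of -0.025, where the median over all probe sets was -0.0051. The lowest adjusted p was 0.967. The 95% confidence intervals, each for 1 probe set alone, excluded a 2-fold change in either direction for all 13 and a 1.5-fold change for 9. In simulated data with the spread of all 8740 probe sets and 200 of them changed, the adjusted threshold recovered 78.1% of 2-fold and 32.5% of 1.5-fold changes. These shares are not the power for the enzymes. The arrays gave only 13 calls, which makes the adjusted threshold stricter than in the simulation. The median SE of the 13 enzyme probe sets was 0.174, against 0.148 over all probe sets. With the 3 shared probe sets added, 6 were higher and 10 lower, and 0 of the 16 passed.

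**Figure D1:**
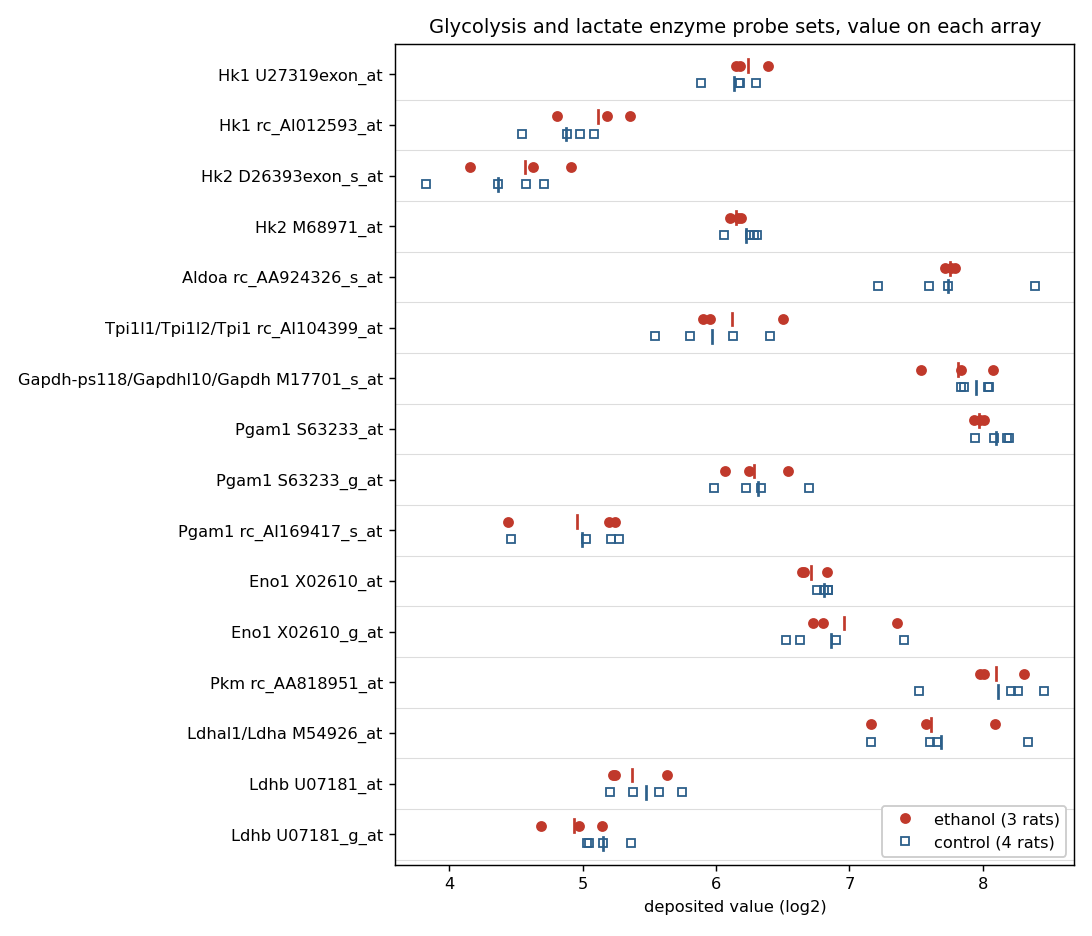
Deposited log2 value (horizontal axis) of each ordinary enzyme probe set on each array, with ethanol as filled circles above control as open squares, and vertical ticks at the group means. Labels with several symbols are the 3 shared probe sets. In every row the ethanol and control points overlap.

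Hexokinase, the entry step, was read by 2 ordinary probe sets for each isozyme. The Hk1 probe set U27319exon_at stood at 6.39, 6.15 and 6.18 in ethanol 2, 3 and 4, against 5.89, 6.17, 6.18 and 6.30 in control 1, 2, 3 and 4. Control 1 was the lowest array and ethanol 2 the highest, and the difference was 0.11 (SE 0.135, 95% confidence interval -0.20 to 0.41, limma adjusted p = 0.971). The other Hk1 probe set, rc_AI012593_at, had the greatest difference of the 13. It stood at 4.81, 5.19 and 5.36 with ethanol and 4.98, 4.54, 4.88 and 5.09 in the controls. Ethanol 3 and 4 were above every control while ethanol 2 was below 3 of the 4, giving a difference of 0.24 (SE 0.174, limma adjusted p = 0.967). It lay between 0.13 and 0.40 with each array left out in turn.

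For Hk2, the insulin-responsive isozyme of muscle and fat, the 2 probe sets pointed opposite ways. D26393exon_s_at read 4.16, 4.63 and 4.92 with ethanol and 4.71, 3.83, 4.36 and 4.58 in the controls, a difference of 0.20 (95% confidence interval -0.34 to 0.73). Control 2 was the lowest array and ethanol 4 the highest. M68971_at read 6.19, 6.10 and 6.16 with ethanol and 6.06, 6.26, 6.29 and 6.31 in the controls, a difference of -0.078 (95% confidence interval -0.33 to 0.18). Its values spanned only 0.25 over the 7 arrays, against 1.09 for D26393exon_s_at.

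The balance of the isozymes was taken as Hk2 minus Hk1 on each array, from the brighter probe set of each gene (M68971_at and U27319exon_at). It was -0.20, -0.052 and -0.016 with ethanol and 0.17, 0.087, 0.10 and 0.0086 in the controls. All ethanol values were below all control values, and the group means differed by -0.18, with ethanol 4 and control 4 closest to each other. The result depended on the probe sets: the 3 other pairings of an Hk2 with an Hk1 probe set gave differences of -0.32, -0.049 and 0.091, each with overlapping groups. The pairing was looked at with these values known, so they carry no test. The 3 Hk1 control probe sets, placed along the transcript, differed by -0.028 at the 3′ end, 0.094 in the middle and -0.082 at the 5′ end.

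**Figure D2:**
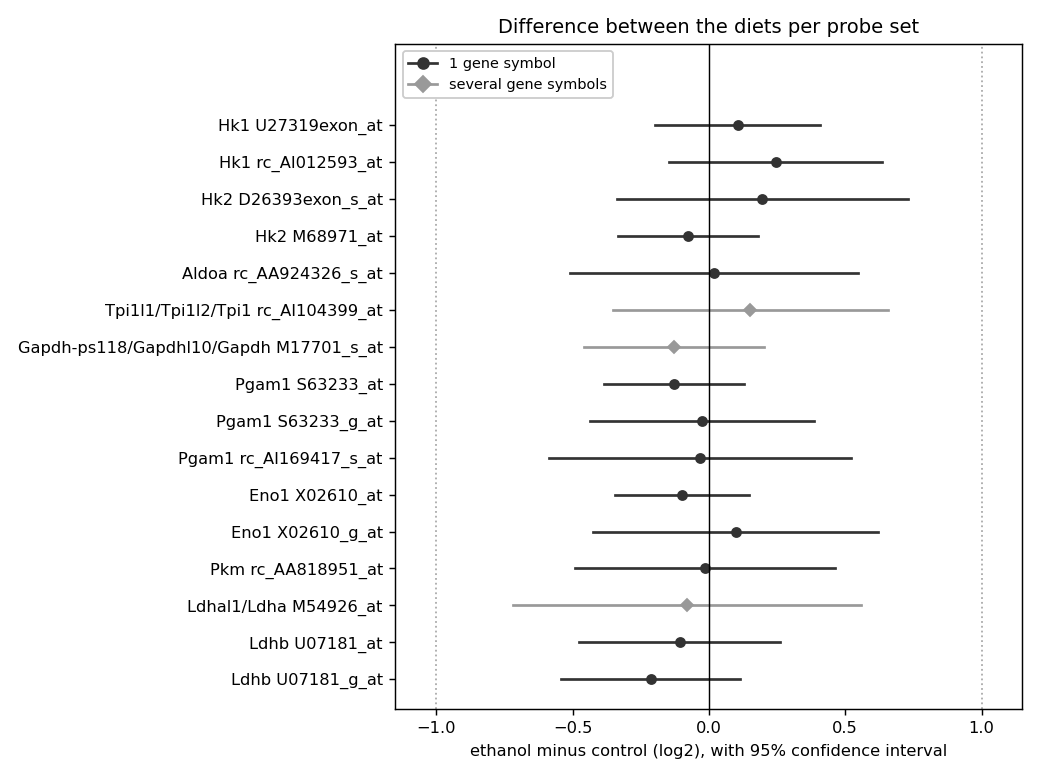
Ethanol minus control log2 difference of each ordinary enzyme probe set, with its 95% confidence interval from limma; dark circles have 1 gene symbol and grey diamonds several, and the dotted lines mark a 2-fold change. Every interval includes 0 and none reaches a 2-fold change.

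Aldolase A, which cleaves fructose bisphosphate, was nearly the same in both groups on average but not in spread. The Aldoa probe set rc_AA924326_s_at read 7.79, 7.71 and 7.76 with ethanol, against 7.60, 7.22, 7.74 and 8.39 in the controls. The ethanol arrays lay close together (SD 0.037, n = 3) inside the range of the controls (SD 0.491, n = 4). The difference was 0.018 (SE 0.235, limma adjusted p = 0.998). Leaving out control 2 moved it to -0.16 and leaving out control 4 to 0.24. The probe set annotated to Tpi1, Tpi1l1 and Tpi1l2, rc_AI104399_at, read 5.90, 5.95 and 6.50 with ethanol and 6.12, 5.54, 5.81 and 6.40 in the controls, a difference of 0.15 (95% confidence interval -0.35 to 0.65).

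Gapdh, the step that reduces NAD, was read by 1 ordinary probe set, M17701_s_at, shared with Gapdhl10 and the pseudogene Gapdh-ps118. It stood at 7.84, 7.54 and 8.07 with ethanol and 8.04, 7.86, 7.84 and 8.04 in the controls, a difference of -0.13 (SE 0.147, limma adjusted p = 0.971). The Gapdh control probe set for the middle of the transcript read 8.60, 8.36 and 8.73 with ethanol and 8.81, 8.26, 8.50 and 8.97 in the controls. The control probe sets for the 3′ end, the middle and the 5′ end differed by 0.019, -0.069 and -0.037. Gapdh thus gave 4 readings in the sense of the mRNA, none more than 0.13 from 0. Subtracting the 5′ from the 3′ control probe set, which gauges how intact the RNA was, gave 0.30, 0.24 and 0.42 with ethanol and 0.26, 0.27, 0.35 and 0.17 in the controls. The means were 0.320 with ethanol and 0.264 in the controls, and an exact two-sided permutation test over 35 divisions of the arrays gave p = 0.4, where 0.0286 is the smallest it can give. The same measure from the Hk1 control probe sets averaged 0.956 with ethanol and 0.902 in the controls, with overlapping groups. It was lowest in control 2 (0.583), then ethanol 2 (0.817), and highest in control 4, then ethanol 4. The mean of the enzymes, given below, had the same lowest and highest arrays. The Gapdh measure was instead lowest in control 4. Any link between RNA integrity and the enzyme values was not tested.

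The array also carries 3 Gapdh control probe sets with the suffix st, the manufacturer's mark for the opposite strand. The one at the 3′ end read 3.49, 3.50 and 3.36 with ethanol and 3.89, 4.05, 3.70 and 3.65 in the controls. The groups did not overlap, and the difference was -0.37 (limma with the control probe sets included, adjusted p = 0.968). The ones in the middle and at the 5′ end differed by -0.33 and 0.075, with overlapping groups. These values were singled out after they were seen.

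Phosphoglycerate mutase, read by 3 Pgam1 probe sets, passed on none of them, and only S63233_at kept its direction with each array left out (-0.18 to -0.096). The other 2 ran from -0.15 to 0.10 (S63233_g_at) and from -0.21 to 0.22 (rc_AI169417_s_at). S63233_at read 8.01, 7.93 and 7.98 with ethanol and 8.09, 7.94, 8.19 and 8.18 in the controls, a difference of -0.13 (SE 0.114, limma adjusted p = 0.967). Only control 2 lay within the range of the ethanol arrays. S63233_g_at and rc_AI169417_s_at differed by -0.025 and -0.034, with 95% confidence intervals of -0.44 to 0.39 and -0.59 to 0.52. Over the 7 arrays S63233_at spanned 0.26, against 0.71 and 0.83 for the other Pgam1 probe sets.

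Enolase 1, the next step, had 2 probe sets that also differed in spread. X02610_at read 6.65, 6.66 and 6.83 with ethanol and 6.81, 6.84, 6.75 and 6.84 in the controls, a difference of -0.099. X02610_g_at read 6.80, 6.73 and 7.36 with ethanol and 6.90, 6.53, 6.63 and 7.41 in the controls, a difference of 0.098 (95% confidence interval -0.42 to 0.62). On it ethanol 4 and control 4 stood above the other arrays of their groups. Neither difference passed (limma adjusted p = 0.971 and 0.973).

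Pyruvate kinase, the last step to pyruvate, was read by the Pkm probe set rc_AA818951_at. It stood at 7.98, 8.01 and 8.31 with ethanol and 8.26, 7.52, 8.21 and 8.45 in the controls. Control 2 was the lowest array and control 4 the highest, and the difference was -0.015 (SE 0.213, 95% confidence interval -0.49 to 0.46). It was -0.21 without control 2 and 0.099 without control 4.

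Lactate dehydrogenase was read by 3 probe sets, of which the 2 for the B subunit were lower with ethanol without passing. The Ldhb probe set U07181_g_at read 4.97, 4.69 and 5.15 with ethanol and 5.36, 5.15, 5.03 and 5.05 in the controls. Its difference of -0.21 (SE 0.146, 95% confidence interval -0.54 to 0.11, limma adjusted p = 0.967) was the lowest of the 13. The second Ldhb probe set, U07181_at, read 5.23, 5.24 and 5.63 with ethanol and 5.75, 5.21, 5.57 and 5.38 in the controls, a difference of -0.11. Both Ldhb differences stayed below 0 with each array left out, at -0.32 to -0.092 and -0.24 to -0.017. The probe set annotated to Ldha and its copy Ldhal1, M54926_at, read 7.16, 7.58 and 8.09 with ethanol and 7.66, 7.16, 7.60 and 8.33 in the controls, a difference of -0.080 (95% confidence interval -0.72 to 0.56). This was the widest interval of the 16, and the direction turned to 0.14 without ethanol 2 and to 0.13 without control 4. M54926_at minus U07181_at, the balance of the subunits, was 1.93, 2.33 and 2.46 with ethanol and 1.91, 1.96, 2.03 and 2.96 in the controls. The group means were 2.24 ± 0.273 (SD, n = 3) and 2.21 ± 0.498 (SD, n = 4), with control 4 alone far above the other controls. The difference of 0.027 became 0.28 without control 4 and -0.080 without ethanol 4.

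The enzymes varied among the arrays of each group. Over the 16 ordinary probe sets the range had a median of 0.466 among the 3 ethanol arrays and 0.627 among the 4 controls. A range grows with the number of arrays, so these medians do not compare the spread of the groups. The pooled within-group SD had a median of 0.264, against 0.193 over all probe sets and 0.207 over those brighter than the median probe set, to which 15 of the 16 belong. Control 2 was the lowest array in 8 of the 16, where it was lowest in 22.1% of all probe sets and 28.3% of those brighter than the median. Control 4 was the highest in 7 of the 16, where it was highest in 12.7% of the probe sets brighter than the median. This pattern was looked at after the values were seen, and the 16 probe sets share the same 7 RNA samples.

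**Figure D3:**
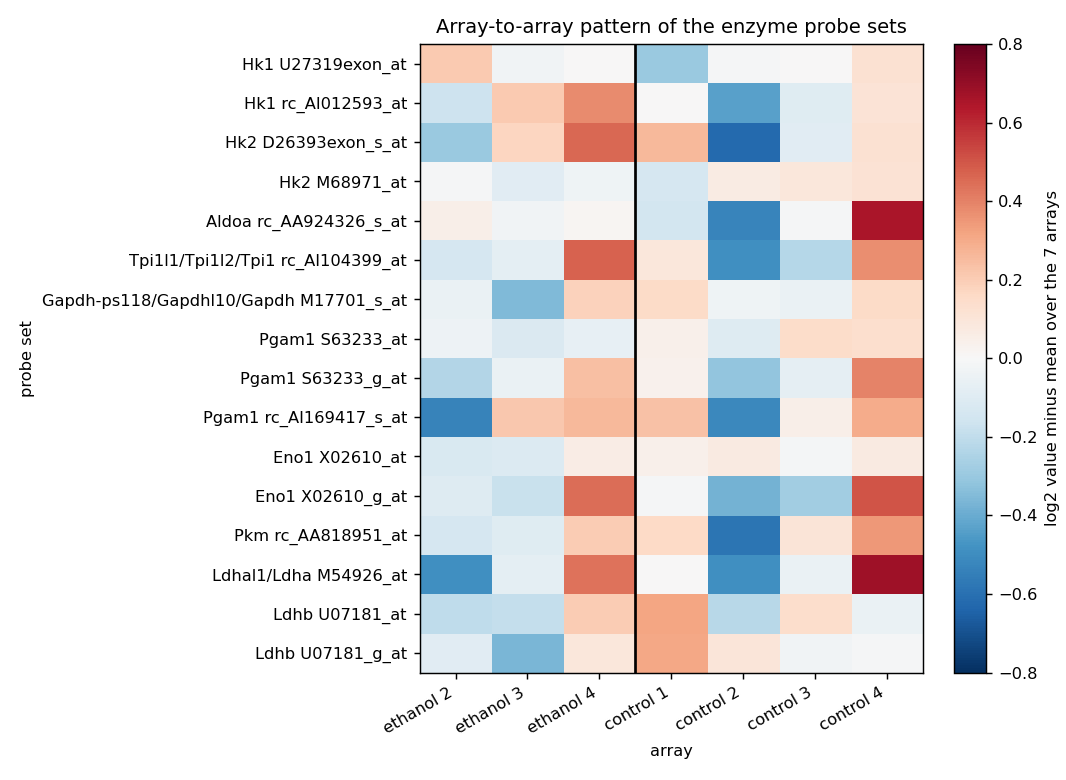
Log2 value of each ordinary enzyme probe set minus its mean over the 7 arrays (colour), with ethanol arrays left and control arrays right of the black line. Most cells are red at ethanol 4 and control 4 and blue at ethanol 2 and control 2, while Hk2 M68971_at, Pgam1 S63233_at and Eno1 X02610_at stay pale on every array.

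Averaged over the 16 probe sets after centring each on its mean, the enzymes stood at -0.15, -0.073 and 0.21 in ethanol 2, 3 and 4, against 0.066, -0.28, -0.024 and 0.25 in control 1, 2, 3 and 4. The group means were -0.0034 with ethanol and 0.0026 in the controls. The means of all log2 values on the deposited arrays lay between 4.758 and 4.760. The spread of values on the arrays moved with it. The SD was 1.34, 1.39 and 1.46 in ethanol 2, 3 and 4, against 1.40, 1.29, 1.36 and 1.44 in control 1, 2, 3 and 4. In both measures control 2 was the lowest and ethanol 2 next, and ethanol 4 and control 4 were the highest. Over all probe sets brighter than the median the same average spanned 0.142 from lowest to highest array, against 0.531 for the enzymes. Quantile normalization, which gives every array the same spread, reduced the enzymes' span to 0.297, with control 2 still lowest at -0.14 and control 4 highest at 0.16.

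**Figure D4:**
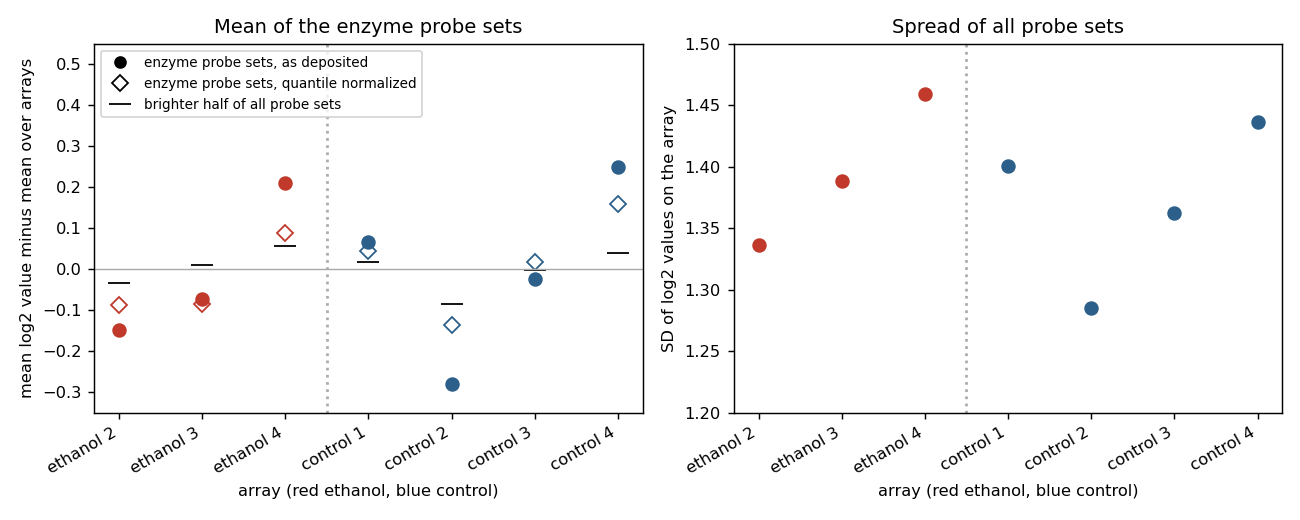
Left, mean of the 16 ordinary enzyme probe sets on each array, each centred on its mean over arrays (log2), as deposited (filled circles) and quantile normalized (diamonds), with all probe sets brighter than the median as dashes; right, SD of all log2 values on the array. Ethanol arrays are red and control arrays blue, and both panels have control 2 lowest and ethanol 4 and control 4 highest.

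The genes whose values over the 7 arrays were most like the mean of the 10 enzymes, by Pearson correlation among 4729 other genes, were S100a10, Atp6v0c, Rpl39, Rps27l and Cd63, with r of 0.988, 0.983, 0.981, 0.980 and 0.975. S100a10 encodes a partner of annexin A2, Atp6v0c a subunit of the proton pump of lysosomes, Rpl39 a ribosomal protein, and Cd63 a membrane protein of late endosomes and lamellar bodies. S100a10 read 4.32, 4.40 and 5.0 with ethanol and 4.75, 4.06, 4.67 and 5.29 in the controls. Ranked first among so many genes on so few arrays, these correlations describe the list and test nothing. Each enzyme is itself part of that mean, for which 1 probe set per gene was taken. The probe sets taken for Hk1 (U27319exon_at) and Hk2 (M68971_at) followed the common mean least, with r of 0.10 and 0.18. Those of Ldha with Ldhal1, Eno1 and Pkm followed it most, with r of 0.94, 0.93 and 0.92. The other Hk1 and Hk2 probe sets, rc_AI012593_at and D26393exon_s_at, were both lowest in control 2 and highest in ethanol 4.

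In the pathways around these enzymes no gene passed either. Among 73 measured genes of 7 lists, 33 were higher and 40 lower with ethanol, the median difference was -0.021, and 0 passed. At an unadjusted p under 0.05 there were 4 of the 73, a share near the 4.6% of all genes with 1 probe set per gene. One probe set outside this choice of 1 per gene stood apart and was picked after its value was seen. It belongs to Pgk1, phosphoglycerate kinase, the ATP-making step between Gapdh and Pgam1. The Pgk1 probe set rc_AA892797_at read 2.99, 3.17 and 3.55 with ethanol, against 4.95, 4.17, 4.92 and 6.03 in the controls. The groups did not overlap, and the difference of -1.78 (SE 0.358, 95% confidence interval -2.58 to -0.98) was the most negative of all 8740 probe sets, with controls 3.44 times as high. It did not pass (limma adjusted p = 0.292, unadjusted p = 0.000668). Its adjusted p ran from 0.00103 to 0.963 over 17 alternatives and was under 0.05 in 5 of them, with differences of -2.06 to -1.44. The call came with array weights (0.0131), a replicate block (0.0294), array SD as a covariate (0.00103), control 2 left out (0.0278), and control 2 and control 4 both left out (0.0127). The other Pgk1 probe sets did not share this size. M31788_g_at read 4.88, 4.99 and 5.09 with ethanol and 5.23, 4.98, 5.22 and 5.30 in the controls, a difference of -0.20. M31788_at differed by -0.055, but it was dim in both groups. Its means were 2.59 with ethanol and 2.64 in the controls, where the lowest deposited value was 1.65.

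**Figure D5:**
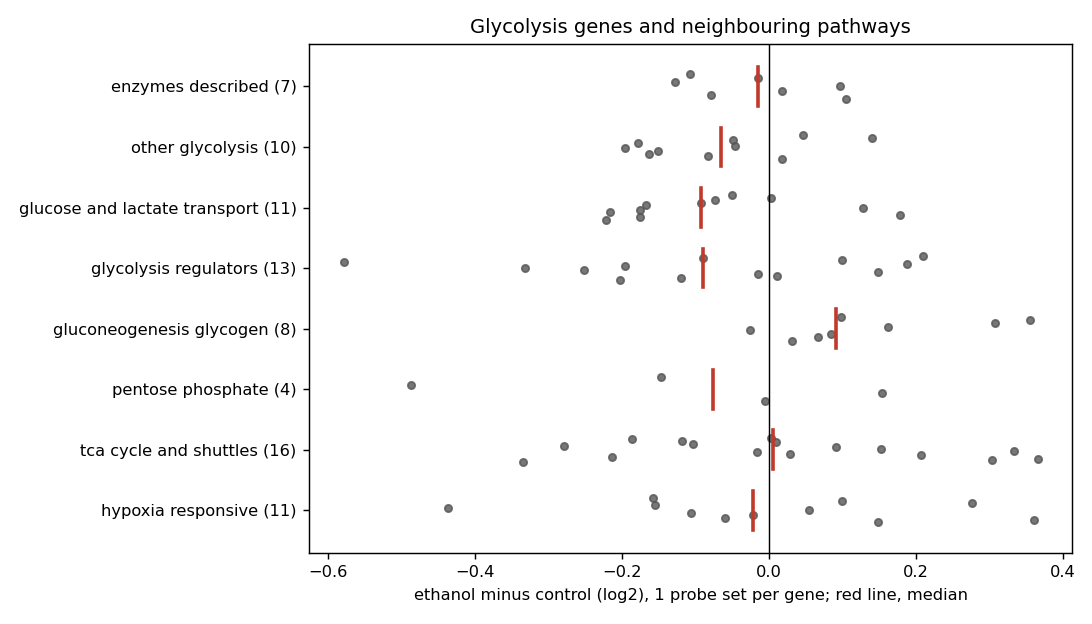
Ethanol minus control log2 difference of each measured gene (grey points, 1 probe set per gene) in the enzymes described here and 7 neighbouring lists, with list medians as red lines and the number of genes in brackets. The medians lie between -0.091 and 0.091, and no gene passed the test.

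Among 10 other glycolysis genes 3 were higher and 7 lower (median -0.065, 0 passed, lowest adjusted p = 0.967 in limma). Pfkl and Pfkm, subunits of the rate-setting phosphofructokinase, differed by 0.019 and -0.082, and the third subunit, Pfkp, by -0.16, with its second probe set at -0.0016. Eno3, the muscle enolase, was at -0.18. Of 11 genes for glucose and lactate transport 3 were higher and 8 lower (median -0.091, 0 passed). Slc2a1, the basal glucose carrier, read 5.17, 5.68 and 5.24 with ethanol and 5.81, 5.39, 5.48 and 5.65 in the controls, a difference of -0.22, while its second probe set was at 0.19. Slc2a4, the insulin-responsive carrier, differed by -0.22 and the fructose carrier Slc2a5 by -0.17, with a second Slc2a5 probe set at 0.050. Slc2a2, the carrier of liver and beta cells, was at -0.18.

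Of 13 regulators of glycolysis and of pyruvate entry into mitochondria 5 were higher and 8 lower (median -0.090, 0 passed). Pdk4, a kinase that shuts off pyruvate dehydrogenase, read 3.79, 4.18 and 3.89 with ethanol and 4.89, 4.89, 4.44 and 3.90 in the controls. Control 4 lay among the ethanol arrays, and the difference of -0.58 (95% confidence interval -1.11 to -0.040) did not pass (limma adjusted p = 0.967). Pdk2, a related kinase, was at 0.19 on one probe set and 0.0032 on the other, Pfkfb2 at -0.12 and Pfkfb1, which sets the phosphofructokinase activator, at -0.20, with its other probe sets between -0.17 and 0.27. Of 8 genes of gluconeogenesis and glycogen 7 were higher and 1 lower (median 0.091, 0 passed). In that list the glycogen phosphorylase genes Pygm, Pygb and Pygl differed by 0.31, 0.36 and 0.16, each with a limma adjusted p of 0.967. A second Pygm probe set was at 0.34, while the other Pygb probe sets were at -0.16 and 0.091. The fructose bisphosphatases Fbp1 and Fbp2 were at 0.032 and 0.067.

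Of 4 measured genes of the pentose phosphate pathway 1 was higher and 3 lower (median -0.076, 0 passed). Prps1, a phosphoribosyl pyrophosphate synthetase, read 4.23, 3.76 and 4.08 with ethanol and 4.32, 4.62, 4.62 and 4.49 in the controls, with no overlap and a difference of -0.49 (limma adjusted p = 0.967). Its relative Prps2 was at -0.15, transaldolase (Taldo1) at 0.15 and transketolase (Tkt) at -0.0054, with a second Tkt probe set at 0.12. Of 16 genes of the citric acid cycle and the NADH shuttles 9 were higher and 7 lower (median 0.0067, 0 passed). Got1, the cytosolic aminotransferase of the malate-aspartate shuttle, was at -0.28 with no overlap, as in 5.24% of all probe sets. Cs, citrate synthase, was at -0.33 and Aco1, the cytosolic aconitase, at 0.30, both with overlapping groups. Of 11 genes that hypoxia induces in many cells 5 were higher and 6 lower (median -0.021, 0 passed). In that list Adm was at 0.36, Tfrc at 0.28 and Edn1 at -0.44, with 95% confidence intervals that include 0. The 4 Vegfa probe sets were at 0.15, 0.17, 0.065 and 0.38. On the last of them, rc_AA850734_at, the groups did not overlap and the interval was 0.011 to 0.75 (limma adjusted p = 0.967).

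Markers of other cells a lung isolate can hold were set beside the enzymes. Of 9 macrophage and monocyte markers 8 were higher and 1 lower with ethanol (median 0.095, 0 passed), and their summed linear signal was 3720 to 5760 with ethanol and 3946 to 5900 in the controls. The mean of these markers, centred as above, was 0.11, -0.054 and 0.16 in ethanol 2, 3 and 4 and -0.17, -0.11, -0.13 and 0.19 in control 1, 2, 3 and 4. Control 4 was the highest and control 1 the lowest. Of 8 type 2 cell markers 3 were higher and 5 lower (median -0.18, 0 passed), and their mean was -0.42, 0.0072 and 0.21 in ethanol 2, 3 and 4 and 0.15, -0.13, 0.020 and 0.15 in control 1, 2, 3 and 4. As in the enzymes, ethanol 2 and control 2 were the lowest arrays and ethanol 4 and control 4 the highest, with control 1 close to control 4. This order was not particular to type 2 cell markers. The lists of the citric acid cycle and NADH shuttles and of hypoxia, centred alike, had the same lowest and highest arrays. Other lists did not. Control 2 was the highest array in the lists of other glycolysis genes (0.11), of glucose and lactate transport (0.091) and of muscle (0.20). Of 17 mesenchymal markers 5 were higher and 12 lower (median -0.11, 0 passed), with sums of 798 to 965 with ethanol and 851 to 985 in the controls. Of these 17, 1 higher and 6 lower had an unadjusted p under 0.05 in limma, against 4.58% of all probe sets (lowest limma adjusted p = 0.403). In 5 of the 17 the groups did not overlap, against 5.24% of all probe sets. Differences on this list ran from -0.99 to 1.01. Its first 2 measured genes, the collagen genes Col1a1 and Col1a2, were at -0.50 and -0.62. Endothelial markers summed to 446 to 480 with ethanol and 473 to 513 in the controls, and neutrophil markers to 60.8 to 72.6 with ethanol and 60.7 to 73.4 in the controls. Hbb, the red cell globin, read 8.33, 5.03 and 6.74 with ethanol and 6.57, 6.15, 6.00 and 6.23 in the controls, highest in ethanol 2. The neutrophil markers S100a8 and S100a9 averaged 3.32 and 3.24 with ethanol and 3.27 and 3.03 in the controls. None of the other lists had a gene that passed. Of 6 type 1 cell markers 3 were higher and 3 lower, with Aqp5 at 0.41 and Pdpn at -0.47. Of 4 club and ciliated cell markers 2 were higher and 2 lower, with Scgb1a1 at -0.046 and Cyp2f4 at 0.43. Of 14 lymphocyte markers 3 were higher and 11 lower, with Cd3d at -0.21 and Cd3g at -0.12. Of 10 endothelial markers 4 were higher and 6 lower, with Pecam1 at 0.11 and Vwf at 0.0017. Of 5 neutrophil markers 3 were higher and 2 lower, as were 3 and 2 of 5 red cell and platelet markers, with Hba-a3 at 0.023. Of 10 muscle markers 2 were higher and 8 lower, with Ckm at -0.020 and Myh6 at -0.24. On the macrophage and monocyte list Cd14 was at 0.12 and Cd74 at 0.19. Cd74 averaged 10.23 with ethanol and 10.04 in the controls, and its 3 other probe sets lay between -0.14 and 0.49. Lyz2 was listed for both macrophages and type 2 cells. How much of the macrophage sum came from type 2 cells was not tested. The part of the other cell types in the enzyme values was not tested.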

How the data were processed

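RNA of isolated alveolar type 2 cells from 3 ethanol-fed and 4 control rats was measured on 1 Affymetrix array per rat. The deposited values were read as log2 expression from their range, with array means that matched before any step here. How the authors summarised, background-corrected and normalised them: not given in the sources used here. No detection calls were used.

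The fit tested 8740 probe sets, without the 59 that are array controls. Of these, 7006 had 1 gene symbol in the platform annotation, 308 several and 1426 none; 6985 of the 7006 matched RefSeq (GRCr8) by Entrez identifier, with 0 symbols changed. A gene with several probe sets was stood for, in lists, by the one with the highest mean.

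limma 3.58.1 in R 4.3.3 fitted diet group to the log2 values (empirical Bayes, two-sided, Benjamini-Hochberg adjustment over all 8740 probe sets, adjusted p under 0.05 called); it was tested on simulated data. Adjusted p-values across probe sets come from this limma fit. The number of arrays limits the precision; the median SE of a difference was 0.148. The design text counts 4 control and 3 ethanol animals, and each array was taken as 1 animal.

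The members and gene lists were chosen with earlier results of these data known. Genes named were the 10 enzymes, the first 2 and the up to 3 lowest-p genes of each pathway list, the first 2 of each cell type list, and the 5 most correlated genes; other probe sets of a gene are given mainly where they disagree, and the Pgk1 and Vegfa probe sets singled out were chosen after their values were seen. Alternatives were quantile normalization, median centring, dim filters, other variance priors, array weights, a replicate block, control probe sets included, 1 value per gene and each array left out. Array SD as a covariate, control 2 and control 4 left out together, and every alternative for the Pgk1 probe set were added after seeing the data. Python 3.11.15 with matplotlib 3.10.9 drew the plots.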

Additional observations from a re-analysis of the deposited data

Results flagged for a closer look

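In 59 measures, the gap between the outermost control and its nearest neighbour was compared with the range of the 4 controls. The threshold was passed by 2 measures, a share no higher than the about 1 in 20 that chance gives. M54926_at (Ldha and Ldhal1) minus U07181_at (Ldhb) was 2.96 in control 4, where control 1, 2 and 3 lay between 1.91 and 2.03. Slc2a4 (D28561_s_at) was 5.83, 5.41 and 5.62 in ethanol 2, 3 and 4; control 4 read 5.57, and control 1, 2 and 3 read 5.90 to 5.95.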

How the results depend on the processing

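Of the 13 enzyme probe sets of their own (7 genes where 1 value stood for a gene, 12 without the dimmer probe sets), 0 passed in limma under the alternatives run, with at most 2 at an unadjusted p under 0.05 (replicate block). Their median difference lay between -0.13 (without control 2) and 0.099 (without control 4). The count over all probe sets was 13, and became 0 without variance moderation (367 at unadjusted p under 0.05), 23 with the replicate block, and 1 with 1 probe set per gene or with probe sets averaged per gene, which test fewer features. Of 271 differences under alternatives (16 probe sets), 27 changed sign and 0 passed, and the cause was not tested. The replicate block and the fit without control 1 gave the same differences, so their 3 sign changes are counted under both. The Aldoa probe set was at -0.082 after quantile normalization, -0.044 with array weights, -0.028 with the replicate block and -0.078 with array SD as a covariate. Pgam1 rc_AI169417_s_at was at 0.026 with array weights and 0.039 with the replicate block, Pkm at 0.035 with the block, Eno1 X02610_g_at at -0.024 with array SD, and Pgam1 S63233_g_at at 0.0036 without control 2 and control 4. With each array left out, differences ran from -0.16 to 0.24 for Aldoa, -0.21 to 0.22 for rc_AI169417_s_at, -0.15 to 0.10 for S63233_g_at, -0.21 to 0.099 for Pkm, -0.099 to 0.28 for X02610_g_at, -0.32 to 0.14 for M54926_at, -0.26 to 0.011 for M17701_s_at and -0.042 to 0.30 for rc_AI104399_at. The replicate numbers in the titles were not taken as pairs. Same-numbered arrays deviated together at correlations of 0.425 (replicate 2), 0.0666 (replicate 3) and 0.432 (replicate 4). Those of replicates 2 and 4 were the highest of all pairings across the diets. The next was 0.352 (ethanol 4 with control 1), and ethanol 3 correlated best with control 1 (0.104). No ethanol array carries the number of control 1, so with the block that array added nothing to the difference. Each block difference equalled the one without control 1. The share of all probe sets at an unadjusted p under 0.05 was 8.12% with the block, 3.38% without control 1 and 4.58% in the main fit. The enzymes were also lowest in ethanol 2 and control 2 and highest in ethanol 4 and control 4. Whether same-numbered arrays shared a batch was not tested. The block changed no call among the enzymes.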
